A study of Arabidopsis thaliana with 16 samples.

Results

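Small RNA from 10 neighbouring genes of Arabidopsis thaliana chromosome 1 was followed across immunoprecipitates (IPs) of the Argonaute proteins AGO5 and AGO9. The genes encode pentatricopeptide repeat (PPR) proteins of the restorer-of-fertility-like (RFL) type and were taken from a fixed list of targets of miR161 and of small interfering RNAs (siRNAs) from the TAS2 locus. All 10 had reads, and they are 10 of the 65386 features and of the 33900 nuclear genes in the deposited table. PPR proteins bind organellar RNA, and the RFL group acts mainly on mitochondrial transcripts. Argonaute proteins carry small RNAs and use them to find matching transcripts. When a microRNA or a TAS-derived siRNA leads to the cutting of an RFL transcript, a plant RNA polymerase can copy the cleaved RNA into double strands, and Dicer-like enzymes cut these into a ladder of secondary siRNAs. AGO1 is the Argonaute best known for such 21 nt siRNAs, and AGO9 is best known for 24 nt siRNAs from transposable elements.

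The AGO5 IP came from pAGO5::GFP-AGO5 plants, the AGO9 IP from pAGO5::GFP-AGO9 plants and the GFP-only IP from p35S::GFP plants, all in the col-0 background. In both Argonaute lines the AGO5 promoter drove the transgene, so AGO9 was pulled down from the cells in which that promoter is active and not from those of its own promoter. Input RNA replicate 1 is labelled with the GFP-AGO5 line and replicate 2 with the GFP-AGO9 line. The spread between inputs thus also holds any difference between these lines. No input is labelled with the p35S::GFP line, so the GFP-only IP differs from input in line as well as in pull-down. It also differs from the Argonaute IPs in promoter. Plants were sampled at 35 days (inflorescence meristem, flower meristems and young buds) and at 7 days (shoot apices), so age and tissue cannot be told apart. Each of the 8 groups had 2 libraries, and the labels do not say whether these came from separate plants, so p-values measure only the spread between libraries. Libraries held between 3578524 and 99594348 read assignments to features, and both day 35 GFP-only libraries were among the shallowest. As a check of the IPs, MIR845a, a microRNA locus known from pollen, where AGO5 acts, had 17295 and 11957 RPM (reads per 1e+06 read assignments) in the day 35 AGO5 IP, against 292 and 275 RPM in day 35 input. At day 7 MIR845a had 16.9 and 9.07 RPM in the AGO5 IP, 69.01 and 28.2 RPM in the GFP-only IP and 6.92 and 12.9 RPM in input, so it showed no AGO5 enrichment there. For AGO9, MIR822 was at 0 in every library and checked nothing. The microRNA locus MIR839 had 179 and 438 RPM in the day 35 AGO9 IP, against 12.7 and 24.3 RPM in input, but at day 7 it had 0.305 and 0.0602 RPM in the AGO9 IP, against 0.259 and 0.138 RPM in input. MIR829 was above input at both ages, with 91.2 and 27.6 RPM in the day 35 AGO9 IP, 133 and 40.03 RPM in the AGO5 IP and 12.98 and 17.2 RPM in input, and 29.3 and 18.6 RPM in the day 7 AGO9 IP, against 1.81 and 2.208 RPM in input.

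The genes lie between positions 23176930 and 23509484 of chromosome 1 (TAIR10.1), a span of 333 kb, with 6 on the plus strand and 4 on the minus strand. AT1G62670, or RPF2 (chr1:23204256-23206822, minus strand), is an RNA processing factor annotated for the 5′ processing of the mitochondrial nad9 and cox3 mRNAs. AT1G62930, or RPF3 (chr1:23306534-23308686, plus strand), is another such factor for mitochondrial mRNAs. AT1G63130, or RPF6 (chr1:23412518-23415155, plus strand), is named as the sixth of that series, and AT1G62910 (chr1:23298948-23301141, plus strand) is RFL9. AT1G62590 (chr1:23176930-23179248, minus strand) is annotated as a PPR protein with adenylate cyclase activity. The others carry no symbol beyond the locus name. They are AT1G63070 (chr1:23385324-23387167), AT1G63080 (chr1:23387574-23390838), AT1G63150 (chr1:23419294-23421714), AT1G63330 (chr1:23489805-23491981) and AT1G63400 (chr1:23507178-23509484), the first pair on the minus strand and the others on the plus strand. The reference annotation describes AT1G63080, AT1G63130 and AT1G63150 as loci that generate trans-acting siRNA. No member overlaps an annotated transposable element, but AT1G62590, AT1G63130 and AT1G63330 overlap other genes, and reads there could belong to either.

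The small RNAs that can target these transcripts are shown first, because they are the shared feature of the genes. Sequences are those of the RefSeq TAIR10.1 genome, 5′ to 3′, with the seed (bases 2 to 8) in capitals. miR161.1 and miR161.2 come from overlapping stretches of MIR161 (chr1:17825731-17825751 and chr1:17825722-17825742), miR400 from MIR400 (chr1:11785947-11785967) and miR173, which starts TAS2 siRNA production, from MIR173 (chr3:8236161-8236182), all on the plus strand. TAS2 3′D6(-) is the siRNA of the sixth 21 nt step after the miR173 cut, on the strand opposite to the TAS2 transcript (chr2:16539877-16539897, plus strand).
miR161.1: uGAAAGUGacuacaucggggu
miR161.2: uCAAUGCAuugaaagugacua
miR400: uAUGAGAGuauuauaagucac
miR173-5p: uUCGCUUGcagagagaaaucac
TAS2 3′D6(-): aUAUCCCAuuucuaccaucug
The 5 molecules have 5 different seeds. The tail of miR161.2 repeats the start of miR161.1, so their sites in a transcript overlap as well.

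Each member was scanned on its sense strand for the best pairing with these molecules. A mismatch counted 1 and a G:U pair 0.5, doubled at small RNA positions 2 to 13, and a score of at most 4 was called a site. Of the siRNAs on both strands in 11 steps of the TAS2 register, 3′D6(-) had sites in the most members. 3′D9(-) and 3′D11(-) each had a site in 1 member, with a score of 4, and the others had none. 3′D6(-) had a site in 8 of the 10 genes, all in coding sequence, and 14 of 27444 protein-coding genes (0.051%) had such a site. Of these 14, 8 are the members themselves and 3 are other RFL genes. The members were listed as targets of TAS2 siRNAs and miR161, so their sites describe the list and carry no test. Bases of the target that are not Watson-Crick paired are in capitals below, and the lines show the different forms of the D6 window among the 10 genes, from the tightest match to the loosest.
AT1G63070 (chr1:23386640-23386660, minus strand), score 1: cagatggtGgaaatgggatat
AT1G62910 (chr1:23299591-23299611, plus strand), score 3: caAatggtCgaaatgggatat
AT1G62590 (chr1:23178641-23178661, minus strand), score 3: caAatggtGgaaatgggGtat
RPF2 (chr1:23206120-23206140, minus strand), score 8: cagatgTtCgTaaCgggGtat
RPF3 (chr1:23307056-23307076, plus strand), score 9: caAatgTtCgTaatggAGtat
AT1G63080 and AT1G63130 carried the same letters as AT1G63070, AT1G63150 the same as AT1G62910, and AT1G63330 and AT1G63400 the same as AT1G62590. RPF2 and RPF3 had no D6 site under this score.

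miR161.2 had a site in all 10 genes, with scores from 1 to 4, against 23 protein-coding genes (0.0838%) in the genome. Those 23 include the 10 members and 9 other RFL genes. miR161.1 had a site in 7 of 10, with AT1G62590, AT1G63070 and AT1G63330 at 5.5, against 13 genes (0.0474%) in the genome. Those 13 include the 7 members and 6 other RFL genes. The windows with the tightest and one of the loosest matches to miR161.2 show where the genes differ, again with unpaired or wobble-paired bases in capitals.
AT1G62590 (chr1:23178190-23178210, minus strand), score 1: tagtcacGttcaatgcattga
AT1G63150 (chr1:23420381-23420401, plus strand), score 1.5: tTgtTactttcaatgcattga
AT1G63080 (chr1:23389780-23389800, minus strand), score 4: tagtcactttcaaCTcattga
miR400 had a site in 9 of 10 genes, AT1G63150 being the exception with a score of 5, against 28 genes (0.102%) in the genome. Those 28 include the 9 members and 8 other RFL genes. miR173, which acts on TAS2 itself (score 2.5 there), had no site in any member and in none of the 27444 genes. A match is a description of sequence and does not show that the transcript was cut.

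**Figure D1:**
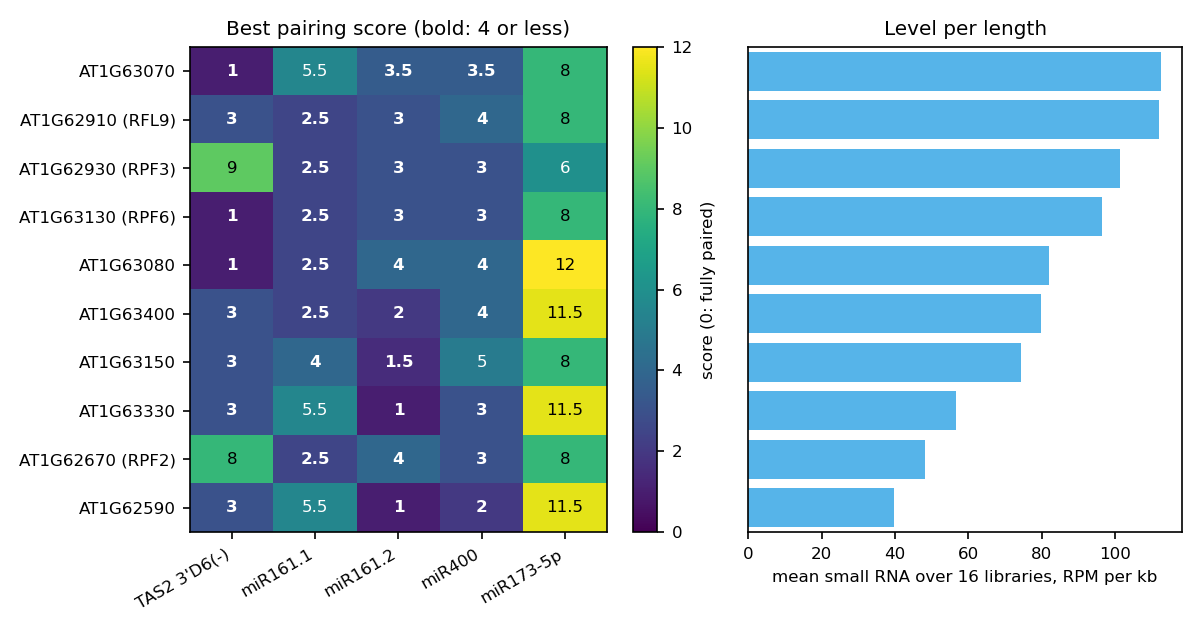
Pairing scores and small RNA levels of the 10 genes, ordered by level. The left panel gives the best score of each small RNA in each gene (0 is full pairing, bold marks scores of 4 or less), and the right panel the mean small RNA over 16 libraries in RPM per kb of gene. AT1G63070 and RFL9 lead at 113 and 112 RPM per kb, AT1G62590 is last at 39.6, and RPF3 stands in the third place without a D6 site.

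All 10 genes were sources of abundant small RNA, which sets them apart in level from most PPR genes. Their means over the 16 libraries ran from 91.9 to 268 RPM with a median of 196 RPM, and per length from 39.6 to 113 RPM per kb with a median of 80.9. Of 242 other genes with a PPR product in the reference, 9 reached a mean of 1 RPM, and the median was 0.0718 RPM. The 19 other RFL genes analysed here had a median of 10.12 RPM and a range from 0 to 1225 RPM. The list was known to hold siRNA sources, so this difference in level is a description and carries no test. Of these, AT1G62860, a transcribed pseudogene inside the same span at 1225 RPM, was above every member, and 6 lay within the members' range. Those within it are AT1G62914 at 154 RPM, AT1G63230 at 150 RPM, AT1G12775 at 131 RPM, AT1G63320 at 126 RPM, and AT1G12300 and AT1G12620 at 125 RPM each. Per length, AT1G62860 (473 RPM per kb) and AT1G63320 (182 RPM per kb) were above every member. AT1G62860 had a miR161.1 site (score 3.5) but no D6 site (6.5), AT1G62914 had sites for miR161.2, miR400 and D6, and AT1G63230 had sites for miR161.1 and miR161.2 only among the 5 molecules.

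Per length, the order of the members was AT1G63070, RFL9, RPF3, RPF6, AT1G63080, AT1G63400, AT1G63150, AT1G63330, RPF2 and AT1G62590. The genes with the tightest match to TAS2 3′D6(-) (score 1), AT1G63070, RPF6 and AT1G63080, stood at the first, the fourth and the fifth place. The 5 genes with a score of 3 stood at the second, the sixth, the seventh, the eighth and the last place, and the genes without a D6 site, RPF3 and RPF2, at the third and the ninth. AT1G62590 and AT1G63330 paired best with miR161.2 (score 1) and stood at the last and the eighth place. These are ranks of 10 related genes that share reads, given as a description.

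The genes are near-copies, and this limits what can be said of any of them alone. Of the 21-mers in a member, between 29.6% (AT1G63080) and 91.8% (AT1G63330) also occur in another member, on either strand. AT1G63330 and AT1G62590 are closest, with 83.5% of the 21-mers of AT1G63330 present in AT1G62590. Only 3.62% of the 21-mers of AT1G63330 and 11.8% of those of AT1G62590 occur once in the genome, against 67.1% for AT1G63080. How reads that fit several copies were counted is not given in the sources used here, so values of close pairs may hold the same reads. No members had the same values throughout: over the 16 libraries the correlation of log2(RPM + 1) between 2 members was at least 0.933, with a median of 0.982 over 45 pairs.

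**Figure D2:**
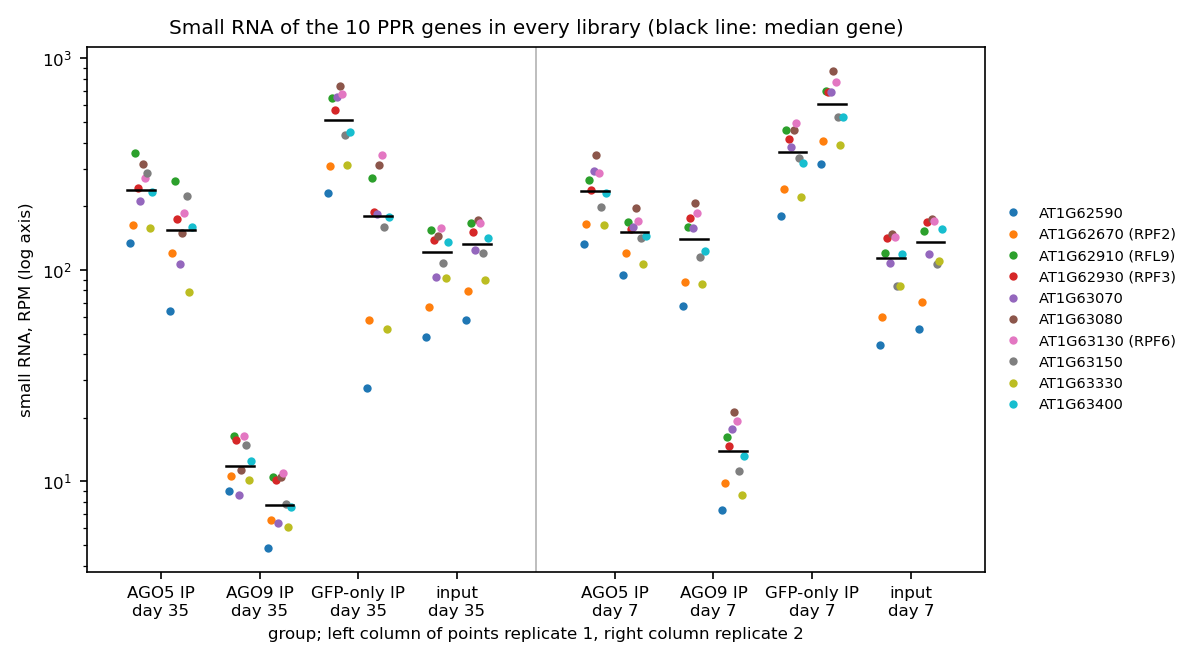
Small RNA of each of the 10 genes in each of the 16 libraries, in RPM on a log axis, with a black line at the median gene. In the day 35 AGO9 IP every gene lies between 4.85 and 16.5 RPM, below every gene in the day 35 AGO5 IP (63.7 to 356 RPM) and in day 35 input (47.9 to 172 RPM).

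The summed level of the 10 genes was lowest in the AGO9 IP and highest in the GFP-only IP. At day 35 the AGO5 IP summed to 2379 and 1523 RPM, the AGO9 IP to 126 and 81.4 RPM, the GFP-only IP to 5035 and 1782 RPM and input to 1136 and 1270 RPM. At day 7 the AGO5 IP summed to 2320 and 1457 RPM, the AGO9 IP to 1363 and 139 RPM, the GFP-only IP to 3511 and 5901 RPM and input to 1049 and 1279 RPM. The AGO9 libraries of day 7 stood far apart, replicate 1 lying above both inputs and replicate 2 below both. By group means, the order from high to low was the GFP-only IP at day 7 (4706 ± 1690 RPM, SD, n = 2 in each group) and day 35 (3408 ± 2301), then the AGO5 IP at day 35 (1951 ± 605) and day 7 (1888 ± 611). Input at day 35 (1203 ± 95.1) and day 7 (1164 ± 163) followed, then the AGO9 IP at day 7 (751 ± 865) and day 35 (103 ± 31.2). Neighbours in this order differed by less than the larger of their SDs, except the AGO5 IP at day 7 against input at day 35. Fewer cells with a small RNA and less of it per cell cannot be told apart in these bulk samples.

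The day 35 AGO9 IP held less small RNA from all 10 PPR genes than day 35 input, and limma called 9 of them lower. RPF2 had 10.5 and 6.59 RPM in the AGO9 IP, against 66.8 and 79.1 RPM in input. RPF3 had 15.6 and 10.2 RPM in the AGO9 IP, against 138 and 151 RPM in input. RPF6 had 16.4 and 10.9 RPM in the AGO9 IP, against 157 and 167 RPM in input. The libraries of the 2 groups did not overlap for any of these processing factors, and the gap was several times the spread within either group. The log2 differences, on the log2(RPM + 1) scale, were -2.98 ± 0.86 (SE) for RPF2, -3.41 ± 0.85 for RPF3 and -3.50 ± 0.76 for RPF6. Their adjusted p-values by limma with Benjamini-Hochberg adjustment were 0.0498, 0.0253 and 0.0131. AT1G63080, the member with the highest mean RPM, had 11.3 and 10.4 RPM in the AGO9 IP, against 145 and 172 RPM in input, and the largest fall of the 10 (log2 difference -3.74 ± 0.81, limma adjusted p = 0.0130). AT1G62590, with 9.00 and 4.85 RPM in the AGO9 IP, against 47.9 and 57.9 RPM in input, was the member that missed the threshold (log2 difference -2.81 ± 0.97, limma adjusted p = 0.1001). AT1G63400 had 12.4 and 7.59 RPM in the AGO9 IP, against 135 and 141 RPM in input (log2 difference -3.69 ± 0.78, limma adjusted p = 0.0116), and its near neighbour AT1G63330 had 10.2 and 6.10 RPM in the AGO9 IP, against 91.5 and 89.98 RPM in input (log2 difference -3.36 ± 0.93, limma adjusted p = 0.0400).

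Of all 17020 features tested, 6.26% were lower in that comparison, 9 of 10 members among them, and the median log2 difference was -3.46 over the members and -0.30 over all features. All 10 members had both AGO9 libraries below both inputs, as had 47.0% of all features. Leaving out any of the 4 libraries left 0 or 1 member past the threshold with medians between -3.74 and -3.17, and the edgeR quasi-likelihood test on recovered reads called 2. In the day 35 AGO9 libraries 24 nt reads made up 89.6% and 66.8% of all assignments, against 48.8% and 56.2% in input, and with 21 nt reads scaled to the 21 nt total of each library, an alternative chosen after seeing the data, the median was -2.09 and limma called 0 members (5 at an unadjusted p under 0.05).

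Within the 21 nt reads the picture depended on the library. The 10 genes took 0.552% and 0.0486% of all 21 nt assignments in the day 35 AGO9 libraries, against 0.614% and 0.804% in input. AGO9 replicate 1 was thus close to input replicate 1 on this scale, but that input is labelled with the GFP-AGO5 line. It was further from input replicate 2 (0.804%), which is labelled with the GFP-AGO9 line. AGO9 replicate 2 was far below both inputs. At day 7 the shares were 0.889% and 0.291% in the AGO9 IP, against 0.337% and 0.420% in input, and the groups overlapped.

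For none of the 10 genes did the day 7 AGO9 IP differ from input under the threshold. RPF6 had 185 and 19.2 RPM in the day 7 AGO9 IP, against 142 and 171 RPM in input, so replicate 1 lay above both inputs and replicate 2 below both (log2 difference -1.36 ± 0.76, limma adjusted p = 0.205). The log2 differences of the members ran from -1.75 to -1.04 with a median of -1.35, against 0.65 over all features. Limma called 0 of 10, as did edgeR and DESeq2, and 9.48% of all features were lower. At an unadjusted p under 0.05, limma had 1 member, and 6790 of all 17020 features in either direction. All 10 members overlapped between the groups, and the limma outcome depended on which AGO9 library was kept.

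Against the GFP-only IP, which holds what binds without an Argonaute bait, all 10 genes were lower in the AGO9 IP at both ages. The promoters of these lines differ too (35S and AGO5), so bait and promoter cannot be told apart here. RFL9 had 16.5 and 10.4 RPM in the day 35 AGO9 IP, against 651 and 273 RPM in the GFP-only IP. AT1G63070 had 8.66 and 6.34 RPM in the day 35 AGO9 IP, against 659 and 183 RPM in the GFP-only IP, the largest difference of the 10. At day 35 the log2 differences were -4.90 ± 0.78 (limma adjusted p = 0.000466) for RFL9 and -5.37 ± 0.84 (limma adjusted p = 0.000427) for AT1G63070. They ran from -5.37 to -3.41 over the members with a median of -4.66, against 0.95 over all features, of which 6.50% were lower. Day 7 gave differences that varied little among the genes. RFL9 had 159 and 16.3 RPM in the day 7 AGO9 IP, against 458 and 704 RPM in the GFP-only IP (log2 difference -3.43 ± 0.78, limma adjusted p = 0.00280). AT1G63150 had 115 and 11.2 RPM in the AGO9 IP, against 338 and 528 RPM in the GFP-only IP, and the largest log2 difference at that age, -3.49 ± 0.80 (limma adjusted p = 0.00306). Over the members the day 7 differences ran from -3.49 to -3.22 with a median of -3.34, against 1.76 over all features, of which 4.92% were lower.

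The libraries did not overlap for any of the 10 genes at either age, as was the case, in that direction, for 9.03% of all features at day 35 and 10.8% at day 7. At day 7, leaving out AGO9 replicate 2 left 5 members past the threshold with a median of -1.75, and counting 21 nt reads only left 0, with a median of -3.47. With 21 nt reads scaled to the 21 nt total the medians were -1.78 at day 35 and -0.82 at day 7, with 0 members called by limma at either age (3 and 0 at an unadjusted p under 0.05).

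**Figure D3:**
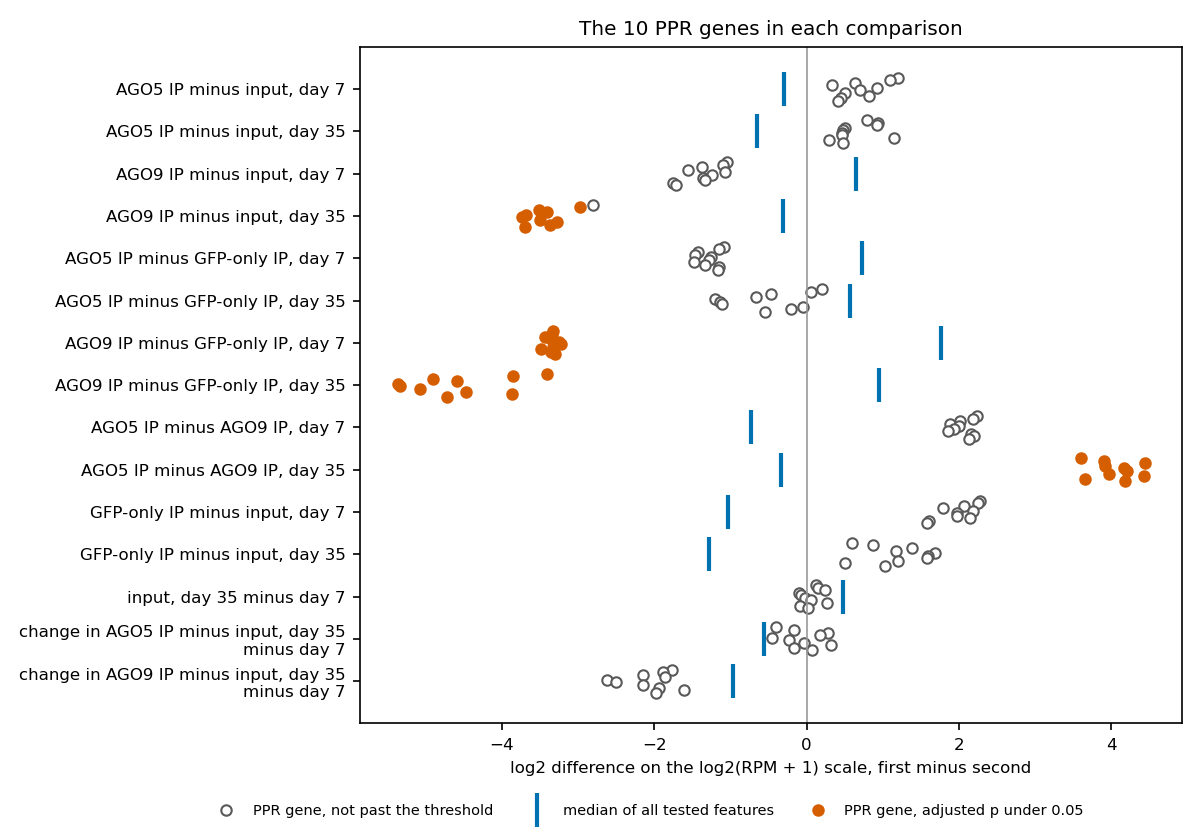
Log2 differences of the 10 genes in the 15 comparisons on the log2(RPM + 1) scale, first group minus second. Filled points passed an adjusted p of 0.05 in limma, open points did not, and bars mark the median of all 17020 tested features. Filled points occur for AGO9 minus input at day 35, AGO9 minus GFP-only at both ages and AGO5 minus AGO9 at day 35.

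The AGO5 IP held more small RNA from all 10 genes than the AGO9 IP at day 35. RFL9 had 356 and 263 RPM in the AGO5 IP, against 16.5 and 10.4 RPM in the AGO9 IP. AT1G63150 had 288 and 225 RPM in the AGO5 IP, against 14.9 and 7.84 RPM in the AGO9 IP. Both AGO5 libraries were above both AGO9 libraries for these genes, by a ratio of group means of 22.99 for RFL9 and 22.5 for AT1G63150. The smallest ratio was that of AT1G62590 at 14.3. The log2 differences were 4.44 ± 0.78 (limma adjusted p = 0.00192) for RFL9 and 4.43 ± 0.80 (limma adjusted p = 0.00220) for AT1G63150. Over the 10 genes they ran from 3.61 to 4.44 with a median of 4.06, against -0.34 over all features, of which 7.06% were higher. All 10 members were without overlap between the groups, as were 23.2% of all features in that direction. With 21 nt reads scaled to the 21 nt total the median was 1.77 and limma called 0 of the 10, with 1 at an unadjusted p under 0.05.

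The AGO5 and AGO9 libraries of day 7 did not separate these genes under the adjusted threshold. The log2 differences ran from 1.86 to 2.242. Limma called 0 of 10, edgeR called 0 and DESeq2 called 4. At an unadjusted p under 0.05, limma had all 10 members, and 6461 of all 17020 features in either direction. By limma, 3.44% of all features were called higher, and no such share is given for DESeq2. Both AGO5 libraries were above both AGO9 libraries for 7 members (11.5% of all features). AT1G63080 shows the overlap: it had 347 and 196 RPM in the AGO5 IP, against 206 and 21.4 RPM in the AGO9 IP. The limma outcome depended on which AGO9 library was kept.

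The AGO5 IP was above input on average for all 10 genes at both ages, but none passed the threshold. The ratio of group means ran to 2.25 at day 35 (AT1G63150) and to 2.35 at day 7 (AT1G62590). RPF2 had 163 and 120 RPM in the day 35 AGO5 IP, against 66.8 and 79.1 RPM in input, and 164 and 120 RPM in the day 7 AGO5 IP, against 59.9 and 70.7 RPM in input. RPF3 had 245 and 173 RPM in the day 35 AGO5 IP, against 138 and 151 RPM in input, and 240 and 157 RPM in the day 7 AGO5 IP, against 141 and 168 RPM in input. RPF2 was thus higher in both AGO5 libraries at each age, while RPF3 overlapped with input at day 7. Log2 differences of the members ran from 0.29 to 1.15 at day 35 and from 0.33 to 1.201 at day 7, with medians of 0.50 and 0.67, against -0.65 and -0.30 over all features. Limma called 0 of 10 at either age (0 at an unadjusted p under 0.05), as did edgeR and DESeq2, with 3.84% of all features called higher at day 35 and 7.73% at day 7. Both AGO5 libraries were above both inputs for 7 members at day 35 (20.9% of all features) and 6 at day 7 (29.1%). With only the groups compared in the fit, 3 members were called higher at day 35 and 2 at day 7, and no share of all features is given for that fit.

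Relative to the GFP-only IP the AGO5 IP was not higher for any member under the threshold. RPF6 had 271 and 185 RPM in the day 35 AGO5 IP, against 675 and 350 RPM in the GFP-only IP. At day 7 RPF6 had 287 and 170 RPM in the AGO5 IP, against 497 and 769 RPM in the GFP-only IP. At day 7 both AGO5 libraries were below both GFP-only libraries for all 10 members (7.98% of all features), with a median log2 difference of -1.26, against 0.73 over all features. Limma called 0 of 10 (0 at an unadjusted p under 0.05), edgeR 0 and DESeq2 8. By limma, 1.39% of all features were called lower, and no such share is given for DESeq2. At day 35 the median was -0.50, against 0.58 over all features, and limma, edgeR and DESeq2 called 0 of 10 (0 at an unadjusted p under 0.05 in limma), with 5.26% of all features called lower. RPF6 was the member without overlap at day 35 (11.1% of all features were lower without overlap).

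The GFP-only IP itself differed from input for these genes more than the AGO5 IP did. No input is labelled with the p35S::GFP line, so line and pull-down cannot be told apart in this comparison. At day 7 both GFP-only libraries were above both inputs for all 10 members, as for 2.95% of all features, with log2 differences from 1.58 to 2.28 (median 2.02, against -1.03 over all features). AT1G63080 had 460 and 873 RPM in the day 7 GFP-only IP, against 147 and 174 RPM in input. Limma called 0 of 10 at day 7, edgeR 0 and DESeq2 10. At an unadjusted p under 0.05, limma had 7 members, and 7296 of all 17020 features in either direction. By limma, 0.182% of all features were called higher, and no such share is given for DESeq2. At day 35 the median was 1.19, against -1.27 over all features. There 7 members did not overlap with input (4.23% of all features). Limma called 0 of 10 at day 35 (0 at an unadjusted p under 0.05), edgeR 0 and DESeq2 8. By limma, 1.10% of all features were called higher, and again no such share is given for DESeq2. Of all assignments, 21 nt reads made up 43.9% and 38.5% in the day 35 GFP-only IP, against 15.5% and 13.4% in input, and 40.6% and 53.0% in the day 7 GFP-only IP, against 26.8% and 26.1% in input. With 21 nt reads scaled to the 21 nt total the medians over the members were -0.35 at day 35 and 1.32 at day 7.

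Between ages, input showed little difference for the 10 genes. The summed level in input was 1136 and 1270 RPM at day 35, against 1049 and 1279 RPM at day 7, and the ranges overlapped. Log2 differences ran from -0.09 to 0.27 with a median of 0.04, against 0.48 over all features. Limma called 0 of 10 (0 at an unadjusted p under 0.05), as did edgeR and DESeq2, with 11.2% of all features called higher. Both day 35 inputs were above both day 7 inputs for 2 of the 10, against 60.5% of all features. The change in AGO5 enrichment over input between ages had a median of -0.10 over the members (limma, edgeR and DESeq2 called 0 of 10, 0 at an unadjusted p under 0.05 in limma, 0.106% of all features called lower). For AGO9 that change had a median of -1.96 (limma, edgeR and DESeq2 called 0 of 10, 0.711% of all features called lower). At an unadjusted p under 0.05, limma had 1 member, and 4553 of all 17020 features in either direction. The limma outcome for AGO9 depended on which day 7 AGO9 library was kept.

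**Figure D4:**
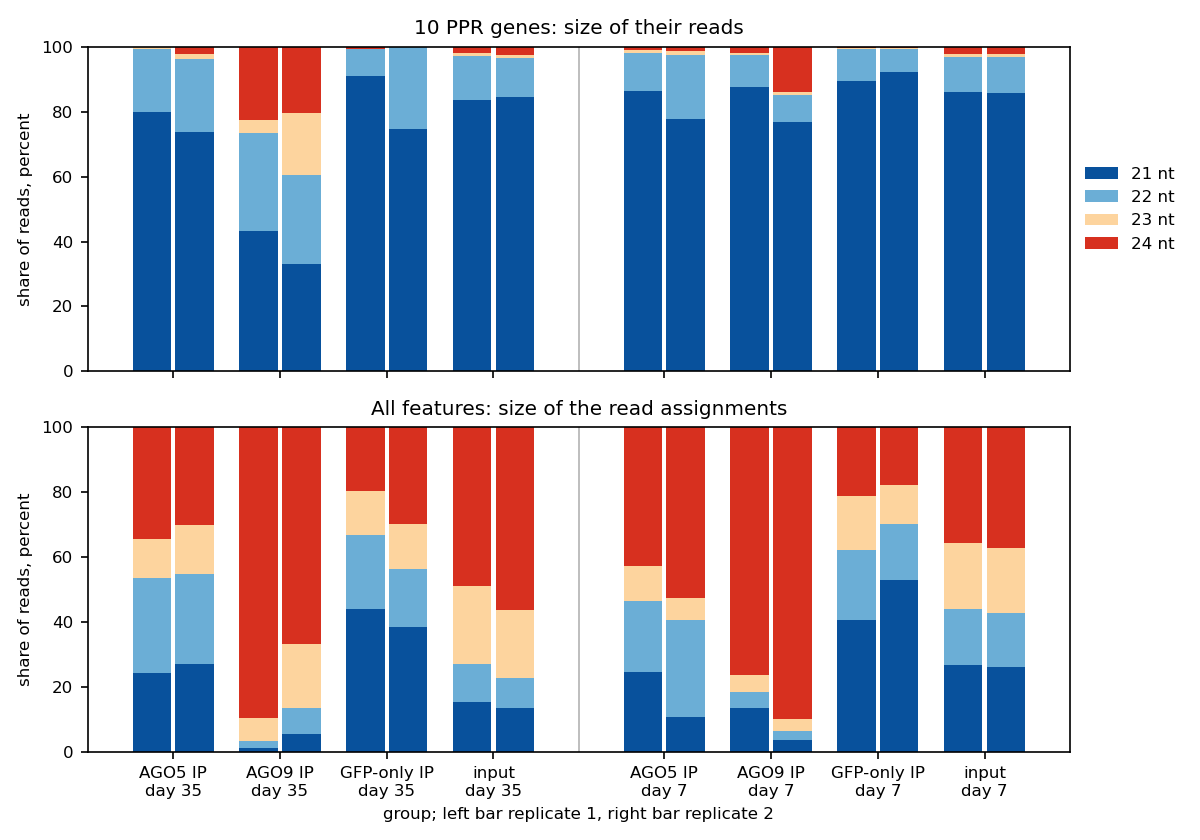
Share of 21, 22, 23 and 24 nt reads in each library, for the 10 genes (top) and for all read assignments (bottom). The top bars are mostly 21 nt except in the day 35 AGO9 IP, at 43.3% and 33.0%.

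The label of secondary siRNA was checked by read size, since the table gives no position within a gene and phasing itself was not measured. In input, 21 nt reads made up 83.5% and 84.7% of the reads of the 10 genes at day 35 and 86.0% and 85.7% at day 7, while 15.5%, 13.4%, 26.8% and 26.1% of all assignments in these libraries were 21 nt. The AGO5 IP had 79.97% and 73.8% at day 35 and 86.5% and 77.7% at day 7. The day 7 AGO9 IP had 87.7% and 76.8%, although 76.4% and 89.8% of all its assignments were 24 nt. The 21 nt share of these genes was thus above 70% in each of these libraries, while 3.68% to 27.1% of all assignments in them were 21 nt.

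The day 35 AGO9 IP was the exception. Its reads from the 10 genes were 43.3% and 33.0% 21 nt, with 95% Wilson intervals of 40.8% to 45.9% and 29.5% to 36.7%. The rest was 30.2% and 27.4% 22 nt, 3.96% and 19.1% 23 nt and 22.5% and 20.5% 24 nt. Of all assignments in these libraries, 0.985% and 5.53% were 21 nt, against 15.5% and 13.4% in day 35 input. The 21 nt share was thus lower over the libraries as a whole too. It was also lower at the TAS loci, by group means. TAS2 had 40.0% in this IP, against 75.9% in day 35 input, and TAS1A 33.7%, against 87.8%. TAS1B had 26.2%, against 93.1%, and TAS1C 20.3%, against 61.8%. MIR161 (91.9%, against 97.6%) and MIR173 (70.2%, against 71.9%) differed less. Among single genes the 21 nt share in these libraries ran from 17.9% to 59.4%, against 81.6% to 90.4% in day 35 input, with no overlap. The 21 nt share of the sum differed by -45.9 percentage points from input and by 38.7 points between the AGO5 IP and the AGO9 IP. Both have an exact two-sided permutation p of 0.333, the smallest that 2 libraries against 2 allow. These AGO9 libraries held 1464 and 654 reads from all 10 genes together, 39 to 192 per gene and library, so this composition rests on few reads.

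In the day 35 AGO5 IP, 22 nt reads made up 19.5% and 22.7% of the reads of the 10 genes, against 13.8% and 11.97% in input. The groups did not overlap, and the 21 nt share was lower by 7.25 points (exact two-sided permutation p = 0.333). Over all assignments 22 nt reads were 29.4% and 27.8% in that IP, against 11.6% and 9.45% in input, so the genes moved in the same direction as the libraries as a whole. At day 7 the 22 nt share was 11.6% and 19.7% in the AGO5 IP, against 11.03% and 11.3% in input.

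**Figure D5:**
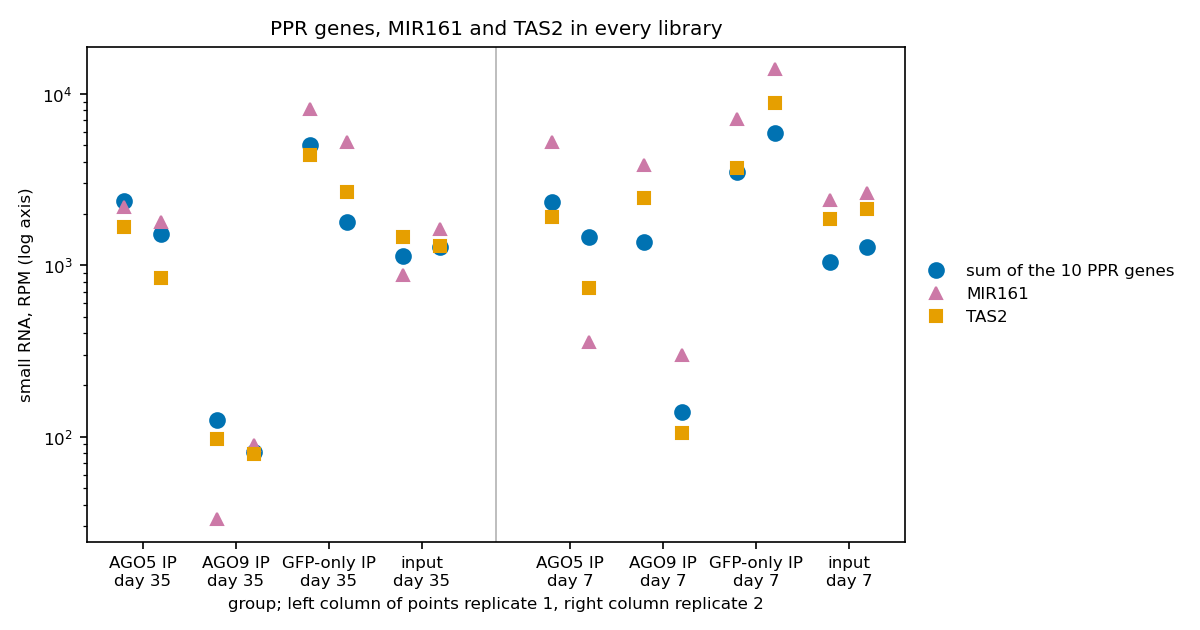
Summed small RNA of the 10 genes (circles), MIR161 (triangles) and TAS2 (squares) in each library, in RPM on a log axis. All 3 are lowest in the day 35 AGO9 IP, where TAS2 had 97.3 and 78.9 RPM.

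TAS2 and MIR161, which give rise to the triggers, were also lower in the day 35 AGO9 IP than in input. TAS2 had 97.3 and 78.9 RPM in the day 35 AGO9 IP, against 1464 and 1287 RPM in input (log2 difference -3.95 ± 1.05, limma adjusted p = 0.0335). MIR161 had 32.9 and 89.2 RPM in the day 35 AGO9 IP, against 877 and 1618 RPM in input (log2 difference -4.43 ± 1.182, limma adjusted p = 0.0344). MIR400 was at 0 in every library, so the level of miR400 could not be followed here. Of the 7 loci in the list of triggers and sources (MIR161, MIR173, MIR400, TAS1A, TAS1B, TAS1C and TAS2), 6 were tested. In these, limma called 3 lower in the AGO9 IP than in input at day 35 (6.26% of all features), 6 lower than in the GFP-only IP at day 35 (6.50%) and at day 7 (4.92%), and 6 higher in the AGO5 IP than in the AGO9 IP at day 35 (7.06%). With quantile normalization these counts were 5, 6, 1 and 5, so the day 7 count rests on the scaling. Of the 16 other RFL genes tested, limma called 7 lower in the AGO9 IP than in input at day 35 (median -3.45 over the 16). It called 10 higher in AGO5 than in AGO9 at day 35, and the counts were 5 and 12 with quantile normalization. The 9 other PPR genes tested had a median of 0.04 in AGO9 minus input at day 35.

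The ratio of the PPR sum to TAS2, formed within a library and thus free of scaling between libraries, was chosen after seeing the data. The day 35 AGO5 IP had ratios of 1.42 and 1.81, the AGO9 IP 1.29 and 1.03, the GFP-only IP 1.15 and 0.665 and input 0.776 and 0.987. At day 7 the AGO5 IP had 1.221 and 1.98, the AGO9 IP 0.554 and 1.32, the GFP-only IP 0.951 and 0.670 and input 0.562 and 0.605. Both AGO5 libraries were above both inputs and both GFP-only libraries at each age. Both AGO9 libraries were also above both inputs at day 35, while the AGO9 IP overlapped with input at day 7.

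The genes whose pattern over the 16 libraries was most like the mean of the members were searched among 1189 nuclear genes with a mean of at least 10 RPM. By Pearson correlation of log2(RPM + 1) they were AT1G62914 (r = 0.999), AT1G63230 (0.963), TAS2 (0.952), AT1G62860 (0.913) and AT1G12775 (0.909). All but TAS2 are RFL genes, and AT1G62914, AT1G63230 and AT1G62860 lie inside the span of the members. AT1G62914 shares 28.7% of its 21-mers with RFL9, so part of its likeness may be the same reads. AT1G12775, outside that span at chr1:4353842-4355929, had a D6 site (score 3.5) and no site for the other 4 molecules. All values within a library share its depth and scaling, so these correlations are a description.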

How the data were processed

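Small RNA bound by AGO5 and AGO9 was measured by RNA immunoprecipitation and sequencing in 16 libraries, grouped by the sample titles into 8 groups of 2. Per the submitters' processing notes, cutadapt 1.18, Bowtie2 2.3.5.1 and featureCounts of Subread 2.0.1 were used with TAIR10. Strand handling and the treatment of reads with several matches are not given in the sources used here. The table deposited by the authors gives RPM per feature for 21, 22, 23 and 24 nt reads and for all together, and their per-library sum is 1e+06. Each of the 80 value columns was assigned to its library by name. RPM values were whole multiples of 1 read in 100% of cases (tolerance 0.01 reads), so reads were recovered. The combined column of the day 35 AGO5 IP replicate 1, as deposited, summed to 59698.5 and was treated as a score, so the 4 sizes were summed instead.

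The 10 members and the comparison lists were chosen with earlier results of these data known. The rule named all members, the 7 trigger loci, the 3 most abundant other RFL genes and the 5 genes of most similar pattern. RFL genes outside the table were not analysed here. Differences were tested by limma 3.58.1 (R 4.3.3) on log2(RPM + 1) of the summed sizes, over the 17020 features averaging 1 RPM or more, with 8 groups in a single fit, a trend and Benjamini-Hochberg adjustment at 0.05 over all features. Fold changes on this scale understate those of low features. Shares of all features called are those of this limma fit, and none is given for edgeR, DESeq2 or the alternative settings. In this fit, an unadjusted p under 0.05 was common over all 17020 features. It was reached by 2602 (change in AGO5 enrichment between ages) to 11929 of them (AGO9 minus GFP-only at day 7). Size shares were compared by exact permutation over libraries, with 95% Wilson intervals that cover counting error only. A count of 3 reads corresponded to between 0.0301 and 0.838 RPM. In simulated data, 200 features out of 17020 were raised or lowered 16-fold in the day 35 AGO9 IP over input. Of these, limma recovered 78% and edgeR 74.5% in the right direction, with 7 false calls each. The changed features were drawn from those averaging at least 10 RPM. No shift in read size between whole libraries was simulated, so these figures do not cover the shift seen in the day 35 AGO9 IP. Alternatives covered the pseudocount, filters, scaling, read sizes, samples in the fit, left-out libraries, a replicate block, edgeR 4.0.16 and DESeq2 1.42.0 on recovered reads. Sites were sought in the RefSeq TAIR10.1 genome.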

Additional observations from a re-analysis of the deposited data

How the results depend on the processing

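For the 39 called differences of single genes, the alternatives other than left-out libraries gave 571 refitted values. Of these, 420 kept direction and side of the threshold, 124 kept direction only and 27 turned sign. Every change of sign came from counting 24 nt reads only. Under that setting AGO9 minus input at day 35 was 0.0036 for RPF2, 0.11 for AT1G63330 and 0.085 for AT1G63400. AGO9 minus GFP-only at day 7 was 0.55 for RPF2, 0.31 for RFL9, 0.41 for RPF3, 0.18 for AT1G63080, 0.67 for RPF6 and 0.55 for AT1G63400. At day 35 it was 1.62 for AT1G62590, 1.61 for RPF2, 0.41 for RFL9, 0.51 for RPF3, 1.36 for AT1G63080, 0.49 for RPF6, 1.84 for AT1G63150, 0.27 for AT1G63330 and 0.60 for AT1G63400. AGO5 minus AGO9 at day 35 was -1.14 for AT1G62590, -0.60 for RPF2, -0.034 for RFL9, -0.012 for RPF3, -0.82 for AT1G63080, -0.81 for RPF6, -0.033 for AT1G63150, -0.75 for AT1G63330 and -1.14 for AT1G63400. The cause of these and the following changes was not tested.

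Counts of called members also moved, and they are given without the share of all features called under each setting. With 24 nt reads only, 1 member was lower for AGO5 minus AGO9 and 4 were higher for AGO9 minus GFP-only at day 35, both against the direction reported. That setting also gave 1 lower for AGO5 minus input, 4 lower for GFP-only minus input, 1 higher for AGO5 minus GFP-only and 0 for AGO9 minus input at day 35, and 0 for AGO9 minus GFP-only at day 7. With 22 nt reads only, counts were 8 for AGO5 minus AGO9 and 0 for AGO9 minus GFP-only at day 7, and 6 for AGO9 minus GFP-only and 0 for AGO9 minus input at day 35. With 21 nt reads only, AGO9 minus GFP-only at day 7 gave 0. With 21 nt reads scaled to the 21 nt total, chosen after seeing the data, AGO9 minus input at day 35, AGO9 minus GFP-only at both ages and AGO5 minus AGO9 at day 35 gave 0. The combined column as deposited, with its differently scaled library, gave 0 for AGO9 minus input and 0 for AGO5 minus AGO9 at day 35. DESeq2 called 10 members for GFP-only minus input at day 7 and 8 at day 35, 8 lower for AGO5 minus GFP-only and 4 for AGO5 minus AGO9 at day 7, and edgeR called 2 for AGO9 minus input at day 35. Median centring moved replicate 2 of the day 35 GFP-only pair, with a median of 0, more than any other library. It gave 2 for AGO5 minus AGO9 at day 7 and 8 for GFP-only minus input at day 35. Without that pair, chosen after seeing the data, it gave 10 for AGO5 minus AGO9, 9 for GFP-only minus input, 6 lower for AGO5 minus GFP-only and 2 lower for AGO9 minus input at day 7, and 1 for AGO5 minus input at day 35. Fitting only the groups compared gave 2 for AGO5 minus input at day 7, 3 at day 35 and 10 for GFP-only minus input at day 7. A filter at 10 RPM gave 2 for GFP-only minus input at day 7, and no filter gave 5 for AGO9 minus input at day 35.

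Leaving out 1 library gave 0 to 1 member for AGO9 minus input at day 35, 9 to 10 for AGO9 minus GFP-only and 8 to 10 for AGO5 minus AGO9 at day 35, and 0 to 1 for GFP-only minus input at day 35 (1 without GFP-only replicate 2). At day 7 it gave 5 to 10 for AGO9 minus GFP-only, 0 to 9 for AGO9 minus input and 0 to 10 for AGO5 minus AGO9, each extreme coming from an AGO9 library of day 7. The change in AGO9 enrichment between ages ranged from 0 to 3. The difference in 21 nt share between the day 35 AGO9 IP and input ranged from -51.1 to -40.8 points. Over 21 and 24 nt reads alone it was -33.7 points, AGO5 minus input at day 35 was 1.11 points and GFP-only minus input at day 7 was 1.96 points.

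Groups share the replicate numbers 1 and 2, but no label ties same-numbered libraries to a shared batch. Over 28 pairs of groups the correlation of same-numbered deviations ran from -0.221 to 0.507, 4 of them over 0.1. The highest was between the AGO5 IP and the AGO9 IP of day 7, whose same-numbered libraries thus deviated together in part. The next, 0.339, was between the day 7 AGO5 IP and day 35 input. As no label ties such libraries, the numbers were not taken as pairing in the main fit. With a replicate block the counts of called members were 9 for AGO9 minus input at day 35, 10 for AGO9 minus GFP-only at both ages and 10 for AGO5 minus AGO9 at day 35. Depth limits the day 35 AGO9 values most, which rest on 39 to 192 reads per gene and library.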

Other observations

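Among the other RFL genes, AT1G06580, NG1 (AT1G62720) and AT1G63320 had a pattern in input unlike that of the 10 members, which was chosen for mention after its values were seen. In day 35 input they averaged 15.04, 18.2 and 56.6 RPM (n = 2), against 207, 208 and 262 RPM in day 7 input, while the 10 members differed between the ages by a median log2 difference of 0.04. The log2 differences were -3.69 ± 1.2 for AT1G06580, -3.44 ± 1.36 for NG1 and -2.19 ± 1.09 for AT1G63320, and none passed the threshold in limma (adjusted p = 0.0629, 0.110 and 0.209), while with quantile normalization 2 of the 16 other RFL genes tested were called lower in day 35 input. In the day 35 AGO5 IP, AT1G06580 and NG1 averaged 83.3 and 79.5 RPM, against 4.89 and 8.10 RPM in the day 35 GFP-only IP. AT1G63320 averaged 106 RPM, against 102 RPM (log2 difference 0.19 ± 1.09, limma adjusted p = 0.953). In that comparison limma called 4170 of all 17020 features higher. Of the 16 other RFL genes tested it called 4 higher, and 1 with quantile normalization. The day 35 GFP-only libraries held only 3578524 and 4160496 read assignments.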
